A study of Mus musculus with 2 samples.

Results

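Head mesenchyme and neural crest regulators were followed as 9 transcription factor genes, *Twist1*, *Twist2*, *Prrx1*, *Prrx2*, *Alx1*, *Alx4*, *Msx1*, *Msx2* and *Foxc1*, chosen by gene symbol from the 29311 genes of 2 RNA-seq tables. All 9 symbols were found in both tables. The first table is of E14 ES cells, a mouse embryonic stem cell line that is wild type (WT) and was grown without feeder cells in medium with serum and LIF. The other is of forebrain dissected from WT B6CBAF1/J mouse embryos at E10.5, with RNA taken from single embryos. There was 1 sample of each kind and no replicate, so the differences below have no replicate check and no p-value is given. Genetic background, culture against embryo, and the extraction reagent (Trizol for ES cells, Trizol LS for forebrain) differ together between the samples and cannot be told apart. Whether skin, meninges or other tissue around the forebrain was removed is not given in the sources used here.

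Neural crest cells leave the dorsal edge of the neural tube, and in the head they form, together with mesoderm, the mesenchyme that lies between the neural tube and the skin and that later gives rise to skull bone, dermis and the coverings of the brain. The genes described here encode DNA-binding proteins of that tissue: basic helix-loop-helix factors (*Twist1*, *Twist2*), homeodomain factors of the paired-related (*Prrx1*, *Prrx2*), aristaless-like (*Alx1*, *Alx4*) and muscle segment (*Msx1*, *Msx2*) families, and a forkhead factor (*Foxc1*). Several are known for craniofacial or skull defects when lost, and the *Msx* genes are also known targets of BMP signalling at the dorsal midline of the neural tube.

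The 250 bases before the annotated start are shown for 4 genes as examples of the sequence they share, since most of these genes start in DNA rich in CG dinucleotides. The sequences are from RefSeq on GRCm38.p6, a later build than that of the tables, and run 5′ to 3′ on the strand of the gene with each CG in capitals. *Twist1* lies on the plus strand at chr12:33957421-33957670, *Twist2* on the plus strand at chr1:91801211-91801460, *Msx1* on the minus strand at chr5:37824586-37824835 and *Foxc1* on the plus strand at chr13:31806396-31806645.
Twist1: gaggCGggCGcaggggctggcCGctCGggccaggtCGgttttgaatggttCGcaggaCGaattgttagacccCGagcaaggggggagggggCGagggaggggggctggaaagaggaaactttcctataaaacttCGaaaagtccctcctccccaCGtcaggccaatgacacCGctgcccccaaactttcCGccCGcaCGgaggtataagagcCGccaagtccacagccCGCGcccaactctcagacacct
Twist2: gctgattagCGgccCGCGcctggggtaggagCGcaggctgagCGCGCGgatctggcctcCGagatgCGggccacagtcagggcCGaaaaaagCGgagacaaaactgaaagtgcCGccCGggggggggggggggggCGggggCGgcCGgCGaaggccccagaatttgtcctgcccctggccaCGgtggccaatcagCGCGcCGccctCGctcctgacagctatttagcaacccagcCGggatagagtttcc
Msx1: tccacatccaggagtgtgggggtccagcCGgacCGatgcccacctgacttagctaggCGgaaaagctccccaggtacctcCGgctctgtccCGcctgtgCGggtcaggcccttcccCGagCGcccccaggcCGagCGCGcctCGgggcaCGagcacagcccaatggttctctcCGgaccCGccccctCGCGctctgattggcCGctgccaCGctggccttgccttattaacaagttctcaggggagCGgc
Foxc1: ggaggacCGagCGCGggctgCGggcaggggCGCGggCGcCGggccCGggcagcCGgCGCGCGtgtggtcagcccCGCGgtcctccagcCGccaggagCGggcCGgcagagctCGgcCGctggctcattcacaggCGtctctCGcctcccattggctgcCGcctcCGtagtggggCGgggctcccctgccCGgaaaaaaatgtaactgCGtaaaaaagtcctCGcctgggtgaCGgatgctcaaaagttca

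The table of promoters held 7 of the 9 genes, all but *Alx1* and *Alx4*. Their 250-base windows had a median of 20 CG dinucleotides and 68% G + C, beside medians of 6 and 52.4% over all 32851 promoters of the table. *Foxc1* had the most CG dinucleotides with 29, followed by *Twist2* with 23, *Prrx2* with 21, *Msx1* with 20, *Twist1* with 18 and *Msx2* with 16. *Prrx1* stood apart with 4 and a G + C content of 47.6%. The E-box CANNTG, the letters that helix-loop-helix proteins such as Twist1 bind, was in the windows of 2 of the 7 genes (28.6%, *Msx1* and *Msx2*) and of 66.2% of all promoters. The homeodomain core TAAT, searched on both strands, was in 4 of the 7 (57.1%) and in 54.9% of all promoters. A spaced pair of this core, TAATNNNATTA, which overlaps the core itself, was in none of the 7 windows and in 0.463% of all promoters. These matches describe letters in the windows and no binding was measured.

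RPKM here is the authors' value per gene, divided by exonic length, so that levels can be set side by side between genes. Read numbers are not listed, but values multiplied by exonic length fell near whole multiples of a step, taken as 1 read, which gave an inferred depth of 42783582 reads for the ES cell sample and 59780484 for the forebrain sample. Intervals are exact Poisson 95% intervals on these inferred reads for a level and exact binomial (Clopper-Pearson) 95% intervals for a fold. PCR copies are not independent molecules, and the intervals cover counting error only. The 2 samples carried the marker genes of their labels, with *Pou5f1* and *Zfp42*, genes of pluripotent cells, at 11243.84 and 11505.32 RPKM in ES cells and 42.90 and 58.93 in forebrain, and the forebrain genes *Lhx2* and *Emx2* at 876.64 and 268.86 RPKM in forebrain and 0 and 0.91 in ES cells.

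All 9 genes were higher in forebrain by at least 2-fold on log2(RPKM + 1), and 0 were higher in ES cells. Over all listed genes, 25.8% were at least 2-fold higher in forebrain and 23.3% at least 2-fold higher in ES cells. The median log2 difference of the 9 genes was 6.81, beside 0.01 over all listed genes. In linear terms their folds ranged from 10.2 for *Msx2* to 2190 for *Alx4*, and their summed level was 67.3 RPKM in ES cells and 7227 RPKM in forebrain, 107-fold apart. The levels of the samples did not overlap across the genes, as the lowest of the 9 in forebrain (*Twist2*) was 7.72-fold above the highest of the 9 in ES cells (*Msx2*). In a bulk sample, fewer cells of a type and less RNA per cell cannot be told apart.

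**Figure D1:**
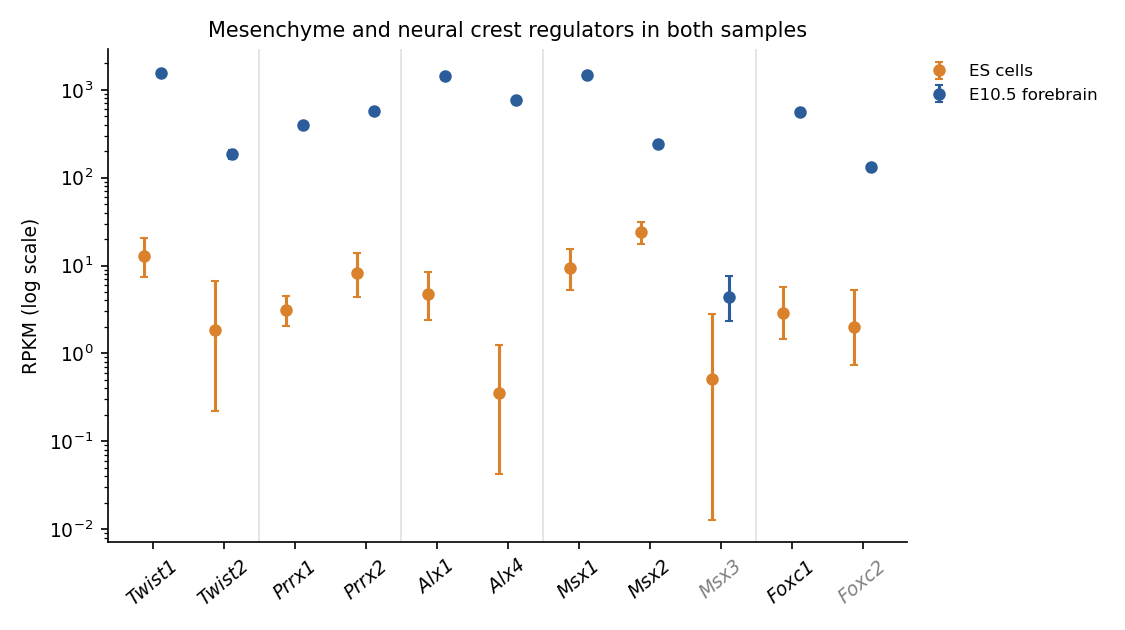
Level of each of the 9 regulators and, with grey names, of 2 close relatives, as RPKM on a log axis, in ES cells (orange) and E10.5 forebrain (blue). Each point is 1 sample, and bars are exact Poisson 95% intervals on inferred reads. Every regulator is at or below 23.86 RPKM in ES cells and at or above 184.28 RPKM in forebrain, whereas the relative *Msx3* is low in both.

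*Twist1* (ENSMUSG00000035799, chr12:34642536-34644682 on NCBIM37, plus strand), needed in head mesenchyme for closure of the cranial neural tube and known for its part in cell migration out of epithelia, was at 12.84 RPKM in ES cells (interval 7.48 to 20.6, 17 reads) and at 1556.07 RPKM in forebrain (interval 1502 to 1612, 3070 reads). Its level was 121-fold higher in forebrain (interval 75.5 to 208). That placed it at the 36.5 percentile of listed genes in ES cells and at the 92.2 percentile in forebrain. It had the highest listed level of the 9 genes there, with an interval that overlapped that of *Msx1* and with the limit on *Alx1* given below. *Twist2* (ENSMUSG00000007805, chr1:93698038-93744605, plus strand), its close relative in dermis and other mesenchyme, had 1.84 RPKM in ES cells (interval 0.222 to 6.64, 2 reads) and 184.28 RPKM in forebrain (interval 164 to 206, 299 reads). With so few reads in ES cells, its 100-fold higher level in forebrain had an interval of 27.5 to 832. *Twist1* was thus the higher of the pair in both samples, 8.44-fold in forebrain (interval 7.496 to 9.54) and 6.98-fold in ES cells (interval 1.66 to 62.4).

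The *Twist* genes code for nearly the same DNA-binding region, which bears on whether reads could be assigned to one of them. Their longest identical stretch of coding sequence spans 23 bp (positions 403 to 425 of the *Twist1* and 265 to 287 of the *Twist2* coding sequence), shown here because it is shorter than the reads.
Twist1 and Twist2: ctgcgcaagatcatccccacgct

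No 50-base stretch of *Twist1* or *Twist2* was found in a protein-coding transcript of another gene, and the same held for *Prrx2*, *Alx4*, *Msx1* and, with the overlapping entry described below set aside, *Alx1*. In *Prrx1* 13 of 9973 such stretches were found elsewhere, in 152 other genes, and in *Msx2* 13 of 2407, in 111 other genes. Whether these stretches added to the reads of *Prrx1* or *Msx2* was not tested. Copies outside protein-coding transcripts were not searched.

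*Prrx1* (ENSMUSG00000026586, chr1:165175247-165243841, minus strand), a paired-related homeobox gene of limb bud and craniofacial mesenchyme, was at 3.09 RPKM in ES cells (interval 2.05 to 4.46, 28 reads) and at 399.55 RPKM in forebrain (interval 389 to 410, 5399 reads). The level in forebrain was 129-fold higher (interval 89.4 to 195). *Prrx2* (ENSMUSG00000039476, chr2:30690492-30736761, plus strand), which acts together with *Prrx1* in jaw and limb skeleton, was at 8.13 RPKM in ES cells (interval 4.33 to 13.9, 13 reads) and at 570.97 RPKM in forebrain (interval 541 to 602, 1360 reads), 70.2-fold higher (interval 40.9 to 132). *Prrx1* had more reads than *Prrx2* in both samples but the lower level, since its annotated exons add up to 11069 bp against 1951 bp. Per exonic length, *Prrx1* was at 0.700 of *Prrx2* in forebrain (interval 0.659 to 0.743) and at 0.380 in ES cells (interval 0.190 to 0.798). An antisense transcript (RP24-485J8.2) and a non-coding gene on the same strand (Gm17698) lie within the *Prrx1* locus but share no exonic base with it, and were at 31.40 and 6.92 RPKM in forebrain.

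*Alx4* (ENSMUSG00000040310, chr2:93482541-93521496, plus strand), an aristaless-like gene of frontonasal mesenchyme, limb and skull, showed the widest difference of the 9. It was at 0.35 RPKM in ES cells (interval 0.0419 to 1.25, 2 reads over 7060 bp of exon) and at 767.35 RPKM in forebrain (interval 749 to 786, 6614 reads). The ratio of 2192 carries a counting interval of 614 to 18330, which is wide because of the 2 reads in ES cells. *Alx1* (ENSMUSG00000036602, chr10:102470481-102491685, minus strand), a relative needed in the mesenchyme of the forebrain region for closure of the cranial neural tube, was at 4.78 RPKM in ES cells (interval 2.39 to 8.55, 11 reads) and at 1448.49 RPKM in forebrain (interval 1409 to 1489, 4971 reads). It was 303-fold higher in forebrain (interval 169 to 608).

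The level of *Alx1* is uncertain because the annotation holds another entry (ENSMUSG00000092348, named AC167468.1 in the tables) whose 2780 exonic bases all lie within exons of *Alx1*. That entry was at 4.83 RPKM in ES cells and 1285.79 RPKM in forebrain, with 11 and 4364 reads, so its log2 difference (7.79) was close to that of *Alx1* (7.97). Whether a read in the shared exons was counted for both entries or divided between them is not given in the sources used here. The reads of both entries add up to 22 in ES cells and 9335 in forebrain. Over the exons of *Alx1* these sums correspond to 9.56 and 2720 RPKM, the latter above the level of *Twist1*. Set beside *Alx4*, the entry named *Alx1* was 1.89-fold higher in forebrain (interval 1.82 to 1.96) and 13.7-fold higher in ES cells (interval 3.02 to 128).

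*Msx1* (ENSMUSG00000048450, chr5:38211724-38215822, minus strand), a homeobox repressor of palate, tooth and skull mesenchyme and of the dorsal midline, was at 9.46 RPKM in ES cells (interval 5.30 to 15.6, 15 reads) and at 1491.72 RPKM in forebrain (interval 1443 to 1542, 3524 reads). It was 158-fold higher in forebrain (interval 95.4 to 282). *Msx2* (ENSMUSG00000021469, chr13:53562250-53568443, minus strand), which overlaps with *Msx1* in skull and crest, was the regulator with the smallest difference. It was at 23.86 RPKM in ES cells (interval 17.6 to 31.6, 48 reads), the highest of the 9 there, and at 243.03 RPKM in forebrain (interval 226 to 261, 729 reads). Its level was 10.2-fold higher in forebrain (interval 7.61 to 13.9), and the interval lay below those of the other 8 genes.

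The order of the *Msx* pair differed between the samples. In ES cells *Msx1* was at 0.397 of the level of *Msx2* (interval 0.206 to 0.720), and in forebrain it was 6.14-fold above *Msx2* (interval 5.66 to 6.65). Neither interval includes an equal level, and the log2 difference of *Msx1* between the samples exceeded that of *Msx2* by 3.86. *Msx3*, whose expression is known from the dorsal neural tube behind the forebrain, was at 0.51 RPKM in ES cells (1 read) and 4.42 RPKM in forebrain (interval 2.36 to 7.57, 13 reads). *Msx1* was 338-fold above *Msx3* in forebrain (interval 197 to 634). The ratio of *Msx3* between the samples, 8.67, had an interval of 1.31 to 371 and says little about its size.

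*Foxc1* (ENSMUSG00000050295, chr13:31898515-31902504, plus strand), a forkhead gene needed in head mesenchyme for the meninges, the skull vault and the anterior eye, was at 2.91 RPKM in ES cells (interval 1.47 to 5.63, 10 reads) and at 565.36 RPKM in forebrain (interval 544 to 587, 2754 reads). The level in forebrain was 194-fold higher (interval 100 to 386). Its relative *Foxc2*, which shares roles with it in mesenchyme and vessels, was at 2.02 RPKM in ES cells (5 reads) and 131.90 RPKM in forebrain (438 reads), 65.3-fold higher (interval 25.0 to 182). *Foxc1* was 4.29-fold above *Foxc2* in forebrain (interval 3.88 to 4.75), while the ratio of 1.44 in ES cells had an interval of 0.425 to 5.09 that includes an equal level.

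In ES cells the inferred reads of the *Foxc* pair before rounding were 9.51 and 4.50, values between whole reads. These genes share a longer run of coding sequence than the other pairs compared, 53 bp (positions 439 to 491 of *Foxc1* and 418 to 470 of *Foxc2*), printed here because a read of 50 bases could lie within it.
Foxc1 and Foxc2: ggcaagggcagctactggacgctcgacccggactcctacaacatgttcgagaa

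Of 3941 stretches of 50 bases in *Foxc1*, 4 were also found in another protein-coding gene, *Foxc2*. Whether the fractional reads come from this run was not tested.

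Within the forebrain the order of listed levels, which takes *Alx1* by the entry of that name, was *Twist1*, *Msx1*, *Alx1*, *Alx4*, *Prrx2*, *Foxc1*, *Prrx1*, *Msx2* and *Twist2*. The intervals of neighbours in this order overlapped for *Twist1* and *Msx1*, for *Msx1* and *Alx1*, and for *Prrx2* and *Foxc1*, and were apart for the other 5 neighbouring pairs. In ES cells the order was *Msx2*, *Twist1*, *Msx1*, *Prrx2*, *Alx1*, *Prrx1*, *Foxc1*, *Twist2* and *Alx4*, and the intervals of all 8 neighbouring pairs overlapped. The 9 genes together had 146 reads in ES cells and 28720 in forebrain, so the order is far less certain in ES cells. *Twist1* and *Msx1* stood near the top in both samples, whereas *Msx2* went from the highest place in ES cells to the place above *Twist2* in forebrain.

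All 9 regulators were above the median of listed genes in forebrain (62.37 RPKM) and 0 were above it in ES cells (48.94 RPKM). They lay between the 62.6 and 92.2 percentiles in forebrain and between the 10.9 and 42.6 percentiles in ES cells. By difference between the samples, 8 of the 9 were above the 98 percentile of all listed genes and *Msx2* was at the 92.7 percentile. In forebrain 3 of them (*Twist1*, *Msx1* and *Alx1*) were above *Lhx2*, the highest of the forebrain genes reported here. All but *Msx2* and *Twist2* were above *Emx2* (268.86 RPKM), the other forebrain gene named above.

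**Figure D2:**
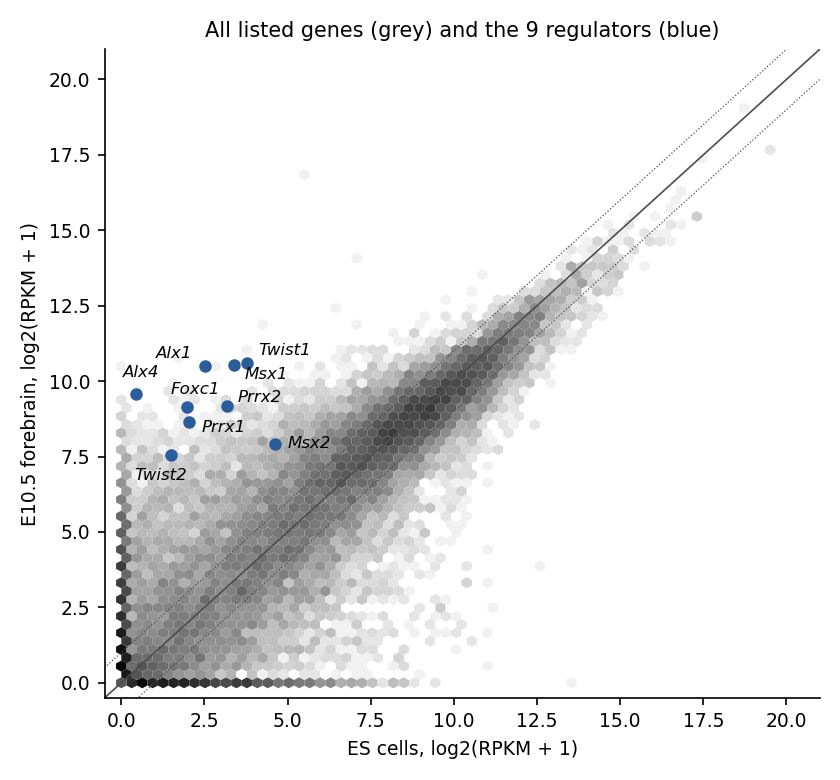
Each listed gene by its level in ES cells (x axis) and E10.5 forebrain (y axis), both as log2(RPKM + 1), with darker grey where more genes fall and the 9 regulators in blue. The solid line marks equal levels and the dotted lines 2-fold. The regulators lie well above the upper dotted line, with *Msx2* nearest to it and *Alx4* farthest.

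Other genes known from neural crest were less uniform. Of 12 such genes, 8 were at least 2-fold higher in forebrain and 2 in ES cells, with a median log2 difference of 2.80. *Ets1*, a factor of crest and of vessels, was at 6.37 RPKM in ES cells and 712.46 in forebrain, and *Sox9*, a factor of crest and cartilage, at 0.30 (1 read) and 321.30. *Tfap2b* and *Pax3* were at 204.93 and 179.32 RPKM in forebrain and at 0.38 and 0 in ES cells. *Foxd3*, which marks early crest and is also a gene of pluripotent cells, went the other way, with 214.40 RPKM in ES cells and 19.43 in forebrain, as did *Erbb3* with 169.66 and 81.69. *Sox10*, a defining factor of migrating crest and its glia, was at 9.90 and 20.68 RPKM. Its difference on log2(RPKM + 1) was 0.99, just short of the limit for a call, while its linear fold was 2.09 (interval 1.27 to 3.52). In forebrain *Sox10* had 68 reads, so it was detected at a level far below that of the 9 regulators.

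Genes of mesenchyme differed between the samples in the same direction as the 9 regulators. Among 14 other transcription factors of mesenchyme, 13 were at least 2-fold higher in forebrain and 0 in ES cells, with a median log2 difference of 4.52. *Six2*, a factor of head and kidney mesenchyme, was at 0.58 RPKM in ES cells (1 read) and 410.13 in forebrain, and *Foxd1* at 28.14 and 373.86. The exception was *Hand2*, known from branchial arch, heart and limb, with 1 read in ES cells and 2 in forebrain. Among 12 receptor and matrix genes of mesenchyme, 12 were at least 2-fold higher in forebrain, with a median log2 difference of 5.53 and summed levels of 225.8 RPKM in ES cells and 23770 in forebrain. The collagen gene *Col3a1* reached 10811.98 RPKM in forebrain from 7.56 in ES cells, *Col1a2* 3036.77 from 18.35, and *Pdgfra*, a growth factor receptor of crest mesenchyme, 1795.60 from 7.25.

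The BMP pathway was compared because *Msx1* and *Msx2* are known as its targets. Of 14 genes, 11 were at least 2-fold higher in forebrain and 2 in ES cells, with a median log2 difference of 1.58. The ligand *Bmp4* (1748.68 RPKM in ES cells, 264.07 in forebrain) and the inhibitor *Smad7* (1058.84 and 175.11) were the genes higher in ES cells. The ligands *Bmp7* (30.07 and 262.55) and *Bmp5* (0 and 160.05) were higher in forebrain. Among the *Id* genes, which encode helix-loop-helix partners without a DNA-binding region and respond to BMP, *Id3* was at 1687.81 and 3709.91 RPKM and *Id4* at 128.34 and 2435.81, while *Id1* (716.73 and 995.97) differed by less than 2-fold.

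Markers of other cell types that a forebrain dissection can hold also differed between the samples. Of 8 genes of the dorsal midline, 7 were at least 2-fold higher in forebrain, with summed levels of 35.3 RPKM in ES cells and 1373 in forebrain. Among them *Rspo3* was at 1.02 and 438.97 RPKM and *Rspo1* at 12.60 and 360.62. The choroid plexus gene *Ttr* was also counted among the 7, but on only 0 and 2 reads. The gene not called was *Gdf7*, at 5.21 and 10.48 RPKM, with a difference on log2(RPKM + 1) of 0.89. Of 8 endothelial genes, 7 were higher in forebrain (summed levels 685.9 and 2989 RPKM), with *Kdr* at 24.99 and 601.26 and *Pecam1*, also known from ES cells, at 551.14 and 316.51. All 7 erythroid genes were higher in forebrain (summed levels 380 and 799200 RPKM), led by the embryonic globin genes *Hbb-y* at 167.15 and 367633.15 and *Hbb-bh1* at 100.41 and 277515.80. The erythroid list took 1.12% of the inferred reads in forebrain and 0.00069% in ES cells.

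All 4 macrophage genes were higher in forebrain (summed levels 84.5 and 487 RPKM), with *Csf1r* at 77.98 and 260.66 and *Cx3cr1* at 3.34 and 109.86. Of 6 surface ectoderm genes, 2 were higher in forebrain and 2 in ES cells (summed levels 433 and 143 RPKM), with *Grhl3* at 296.35 and 36.86 and *Wnt6* at 90.92 and 61.19. The 2 higher in ES cells were *Grhl3* and *Krt17* (26.78 and 4.76 RPKM). The 2 higher in forebrain were *Trp63* (0.15 and 20.74 RPKM) and the basal keratinocyte gene *Krt5* (0.19 and 5.47). The median log2 difference of the surface ectoderm genes was -0.47. No gene of these lists was at 0 in forebrain. All 6 forebrain genes reported here were at least 2-fold higher in forebrain, with a median log2 difference of 6.09, and all 5 pluripotency genes at least 2-fold higher in ES cells, with a median of -8.001. The part of mesenchyme, vessel, blood or midline cells in the levels of the 9 regulators was not tested.

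**Figure D3:**
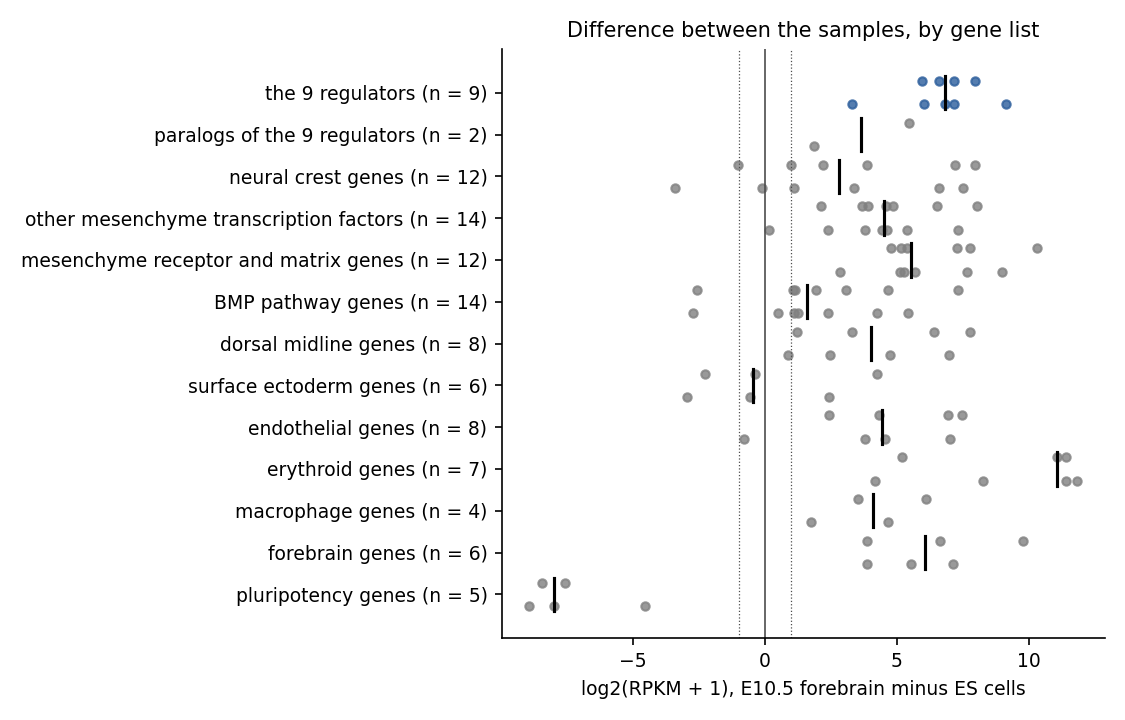
Difference in log2(RPKM + 1) between E10.5 forebrain and ES cells for every gene of the 9 regulators (blue) and of each comparison list (grey), 1 point per gene, with the list median as a black bar. Dotted lines mark 2-fold in either direction. The median of the 9 regulators, 6.81, is above those of the mesenchyme lists (4.52 and 5.53) and below that of the erythroid genes (11.09).

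The difference of each regulator kept its direction under 6 other settings of pseudocount and scaling. Its size differed most where RPKM was recomputed per 1000000 inferred reads, which makes low values, as those of the 9 genes in ES cells, small beside the pseudocount of 1. Under that setting the log2 differences of the 9 genes had a median of 3.57, and 9 of 9 were at least 2-fold higher in forebrain, where 11.5% of all listed genes were higher in forebrain and 8.19% in ES cells.

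**Figure D4:**
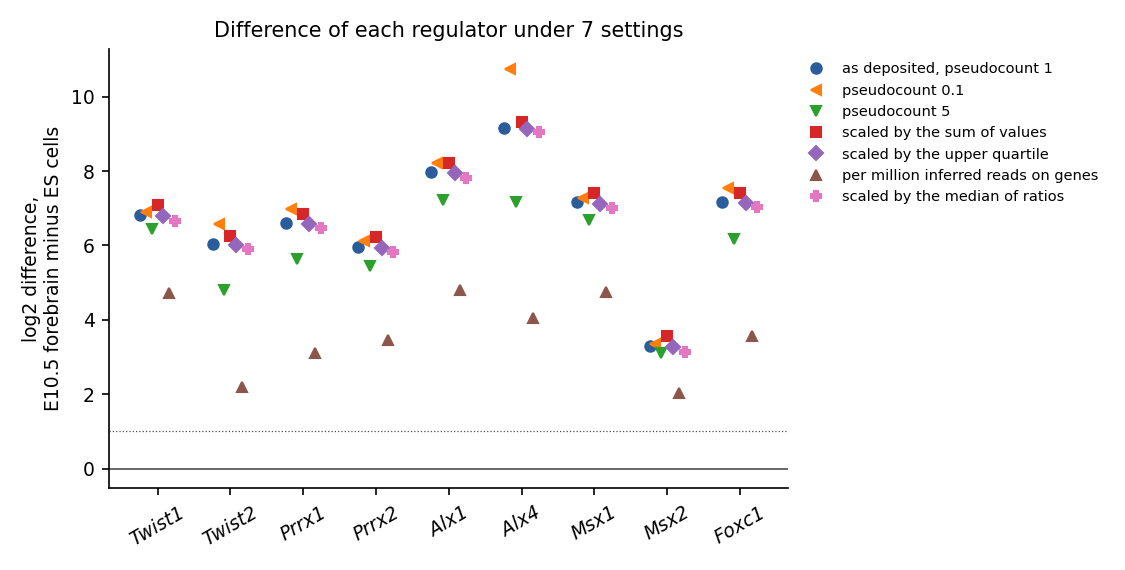
Log2 difference between E10.5 forebrain and ES cells for each of the 9 regulators under 7 settings of scaling and pseudocount, 1 symbol per setting. The solid line marks no difference and the dotted line 2-fold. Every symbol is above the dotted line, and the lowest, 2.03, is *Msx2* per 1000000 inferred reads.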

How the data were processed

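The authors depleted total RNA of rRNA, prepared strand-specific libraries, aligned the single-end reads in HTSstation to mm9 (NCBIM37) and deposited 1 RPKM value per gene and sample. The submitters' processing notes name Bowtie 0.12.7. The labels give reads of 100 bp and the methods 50 bp. The pipeline version, the scaling, and the use of strand and of shared reads in counting are not given in the sources used here.

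The 9 genes and the comparison lists were chosen with earlier results of these data known. The deposited RPKM values were used as they stand, and differences are on log2(RPKM + 1), which understates those of low genes. A gene was called higher past 2-fold. All 29311 genes matched the annotation by identifier and position, and exonic lengths came from it. The step of 1 read was taken from genes of low value whose exons span at most 2500 bp, as 1.221 RPKM x kb in ES cells and 0.8191 in forebrain. Of 4833 and 4838 such genes, 58.5% and 58.7% lay within 0.05 read of a whole multiple, where chance gives 10% for a step fixed in advance. The step was fitted to these same genes, so the share is not an independent check of it. Reads were rounded to whole numbers. By this step, 1 deposited RPKM is 0.0191 per 1000000 inferred reads per kb in ES cells and 0.0204 in forebrain, so the values are not per 1000000 of these reads. The search for the step and the interval of a fold were tested on simulated Poisson reads, the model that the interval assumes.

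Of each list, the text names the 2 genes with the highest RPKM in either sample. It also names the relatives of the 9 genes in their families, genes overlapping them, the nearest protein-coding genes on each side, and the 3 genes nearest to *Twist1* in pattern. *Tfap2b*, *Pax3*, *Foxd3*, *Erbb3*, *Sox10*, *Hand2*, *Pdgfra*, *Bmp4*, *Smad7*, *Bmp7*, *Bmp5*, *Id1*, *Ttr*, *Gdf7*, *Trp63*, *Krt5* and *Krt17* were named after their values were seen. Of 107 list genes, 2 were matched by an older symbol. Some listed genes are not reported here. Alternatives covered pseudocounts of 0.1 and 5, 4 other scalings, a 4-fold limit, and the genes that set the median. Python 3.11.15, numpy 2.4.6, pandas 2.3.3, scipy 1.17.1 and matplotlib 3.10.9 were used.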

Additional observations from a re-analysis of the deposited data

How the results depend on the processing

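Of 55 alternative values of single regulators, 0 were reversed, 43 were counted as within a counting interval and 12 as moved. The 12 were all 9 per 1000000 inferred reads, and *Prrx1* (5.64), *Alx4* (7.17) and *Foxc1* (6.17) with a pseudocount of 5. The counting interval used here was not that of the linear fold given above. *Alx4* at 9.05, scaled by the median of ratios, was counted as within it but lies below its linear fold interval on a log2 scale. Of 37 alternative values for the counts and the median, 35 stayed the same. The median log2 difference was 3.57 per 1000000 inferred reads, where 1 deposited RPKM is at most 0.0204 and the pseudocount of 1 outweighs low values, although a linear fold is then only 1.07 times the deposited one. The number of regulators above the median in ES cells was 2 when all 37310 annotated genes were used with unlisted genes at 0, which lowers that median to 12.61 RPKM. Scaling by the sum of values shifted the median log2 difference of all genes by 0.25 and scaling by the median of ratios by -0.15. With the latter, 8 of 14 BMP pathway genes were higher in forebrain instead of 11. The neural crest genes higher in forebrain were 9 of 12 with a pseudocount of 0.1 or scaling by the sum of values. They were 7 of 12 with a pseudocount of 5 or scaling by the median of ratios. Per 1000000 inferred reads, the number higher in forebrain was 9 of 14 for the other mesenchyme transcription factors (median log2 difference 1.505), 12 of 12 for the receptor and matrix genes, 7 of 12 for neural crest, 9 of 14 for BMP, 5 of 8 for dorsal midline, 3 of 4 for macrophage, 5 of 6 for forebrain, 1 of 2 for the relatives and 0 of 6 for surface ectoderm genes, and unchanged for endothelial and erythroid genes. In ES cells 1 surface ectoderm and 1 neural crest gene were then higher. The median log2 difference of the receptor and matrix genes was then 3.97, above the 3.57 of the 9 regulators. With a pseudocount of 0.1, the median of the forebrain genes (7.19) was above that of the 9 regulators (6.97).

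Chosen after seeing the data, use of the other *Alx1* entry gave a log2 difference of 7.79, and leaving out each regulator in turn gave medians of 6.71 to 6.99. No paired analysis was possible because there was 1 sample of each kind. Depth limits the ES cell values of *Twist2* and *Alx4*, which had 2 reads each.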

Other observations

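The genes next to the 9 regulators on the chromosome were mostly less different between the samples. Of 18 nearest protein-coding neighbours, 8 were at least 2-fold higher in forebrain and 0 in ES cells, with a median log2 difference of 0.75, beside 25.8% and 23.3% of all listed genes called in these directions. Both neighbours of *Twist1* were among the 8, *Ferd3l*, another helix-loop-helix gene, with 0 reads in ES cells and 74 in forebrain (68.41 RPKM), and *Hdac9*, a histone deacetylase gene, at 1.21 and 61.16 RPKM. Both neighbours of *Foxc1* were too, the forkhead gene *Foxf2*, also a member of the mesenchyme list, at 0 and 158.24 RPKM, and *Gmds*, which encodes an enzyme of fucose synthesis, at 68.21 and 401.29 RPKM. By contrast, the neighbours of *Twist2* were close to equal, *Asb1* at 299.39 and 289.08 RPKM and the deacetylase gene *Hdac4* at 141.38 and 155.12. Beside *Prrx2*, *Asb6* was at 504.41 and 276.38 RPKM and *Ptges*, a prostaglandin synthase gene, at 113.92 and 127.05. *Msx2* lies between *Sptlc1* (1788.70 and 915.93 RPKM) and Gm5449 (4674.29 and 4129.10), which were both higher than *Msx2* itself in either sample. The rest of the 8 were both neighbours of *Alx1*, *Rassf9* (15.28 and 46.02 RPKM) and *Lrriq1* (5.17 and 18.60), and both neighbours of *Msx1*. The latter were *Stx18* (389.64 and 880.61 RPKM) and *Cytl1* (0 and 3.36, with 4 reads in forebrain). The remaining neighbours, not called in either direction, were *Gorab* (210.94 and 362.37 RPKM) and 4921528O07Rik (0 and 0.28) at *Prrx1*, and *Ext2* (186.95 and 296.88) and Gm10803 (0 and 0.66) at *Alx4*.

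By Euclidean distance on log2(RPKM + 1) over the 2 samples, the protein-coding gene nearest to *Twist1*, the regulator with the highest listed level, was *Gas1*, which encodes a membrane protein of hedgehog signalling, at 14.84 RPKM in ES cells and 1475.52 in forebrain (distance 0.209). Next came Gm1673 at 11.93 and 2036.02 RPKM (distance 0.3999) and *Msx1* itself at 9.46 and 1491.72 RPKM (distance 0.409). With 2 samples, many genes can lie this close.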
